A study of Sus scrofa with 12 samples.

Results

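The testes of Hezuo pigs (HZ) were compared at 120 days of age and at 30 days. The libraries titled Ha1, Ha2 and Ha3 (30 days) and Hb1, Hb2 and Hb3 (120 days) were used, which are 6 of the 12 in the series. The other 6 are of Landrace pigs at the same ages, in 3 libraries for each age. HZ is an indigenous Chinese breed whose boars mature early, and the comparison asks which coding genes and lncRNAs differ in its testis between an early and a later stage of growth. Boars of both ages were kept under the same conditions and castrated, and each library was made from frozen testis of a single animal after removal of ribosomal RNA. Every cell type of the organ is therefore mixed in a library, in proportions that may differ with age. The counts of coding genes, in units of 1e6, came to 23.8, 22.5 and 23.5 in Ha1, Ha2 and Ha3 and to 20.7, 22.7 and 17.2 in Hb1, Hb2 and Hb3. Those of lncRNAs, in units of 1000, came to 502, 610.2 and 634 and to 654, 768 and 541.

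In the seminiferous tubules, spermatogonia divide by mitosis, enter meiosis as spermatocytes, and become haploid spermatids that are remodelled into sperm. Sertoli cells nurse the germ cells inside the tubule and seal them off with tight junctions, myoid cells wrap its wall, and Leydig cells between the tubules turn cholesterol into androgens. Before puberty the tubules hold mainly Sertoli cells and early germ cells, and meiotic and haploid cells join them with the first wave of spermatogenesis.

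Markers set for each cell type were looked up in every library, with more than 3 counts taken as present. The Sertoli cell genes SOX9, AMH, WT1 and CLDN11, the Leydig cell genes STAR, CYP17A1, INSL3 and HSD3B1, and the spermatogonial genes ZBTB16, UTF1, GFRA1 and DAZL were present in all 6 libraries. So were ACTA2 and MYH11 of smooth muscle and the spermatocyte genes SYCP1, SYCP3, SPO11 and PIWIL1. Of the spermatid genes, PRM1 was present in all 6 libraries and AKAP4 in 5, while TNP1 and ACRV1 were present in the 3 libraries of Hb alone. ZP3 and FOXL2, which mark the ovary, did not exceed 3 counts in any library. ZP2 of the egg coat reached 19 counts in Hb1 and at most 2 elsewhere, and GDF9, an oocyte growth factor, was present in all 6 libraries.

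The libraries of the older group were less alike than those of the younger. In Hb1, 55 of 16548 tested genes lay more than 4-fold above both other libraries of Hb, against 16 in Hb2 and 19 in Hb3. Below both others lay 20 in Hb1, 40 in Hb2 and 28 in Hb3. CYP17A1, the enzyme that makes androgen precursors, was a marked case of a gene high in Hb1, at 1437, 20.7 and 19.1 CPM in Hb1, Hb2 and Hb3. RDH12, RDH16, DHRS4, INSL3, STAR, CLIC5, CYP11A1, AKR1CL1 and SRD5A1 were others, and all were picked out after their values were seen. Between pairs of libraries, Pearson's r over tested genes ran from 0.983 to 0.989 within Ha and from 0.962 to 0.971 within Hb. Hb2 was the nearest of its group to the young libraries, with r of 0.703 to 0.728 against 0.645 to 0.672 for Hb1 and Hb3.

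At 120 days the listed genes of meiosis and sperm formation were mostly higher, many of them from near 0, while those of connective tissue, vessels, immune cells and steroid synthesis were mostly lower. The lists were chosen with earlier results of these data known, so their counts and medians are descriptions and not independent evidence. On counts scaled by TMM over these 6 libraries (CPM, counts in 1e6), 51.4% of 16548 tested coding genes were called in edgeR, with 4666 higher at 120 days (28.2%) and 3844 lower (23.2%). Each count of a list below is to be read beside these shares. The rises were far larger than the falls. A log2 fold change over 4 was found for 1533 of the 4666 higher genes, and one under -4 for 182 of the 3844 lower genes. Beyond 8 and -8 the numbers were 567 and 30. No count was recorded in any 30-day library for 270 of the tested genes, and in any 120-day library for 38. All 270 were called higher and all 38 lower, because a gene near 0 in one group passes the filter only if high in the other. In each list below with genes near 0 at 30 days, the count of rises is therefore partly fixed by the filter. Members that are low at both ages were not tested. The 2 groups did not overlap for 8454 of the 8510 called genes, and for 12626 (76.3%) of all tested genes. In bulk tissue, fewer cells of a type and less RNA per cell cannot be told apart, which holds for each result given here.

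The balance of rises and falls depended on the processing. With library size alone in place of TMM, the median log2 fold change of all tested genes moved by -0.30, to -0.32, and the calls became 3978 higher and 5039 lower. The share of calls that were higher was 54.8% with TMM and 44.1% with library size alone. It was 39.6% with limma on log2(FPKM + 0.1), where the median moved by -0.28, and 42.5% with 1 added in place of 0.1, where it moved by -0.08. These limma settings change the tool, the unit and the filter together, with 20156 genes tested, so their difference from TMM cannot be laid to scaling alone. An assembled gene described as progesterone receptor-like, noted after its values were seen, held 8.12, 9.26 and 8.68% of coding counts in Ha and 2.66, 4.68 and 2.70% in Hb, which enters library size and shares of counts, and whether it is an artefact of the assembly was not tested. A list median near 0 is therefore to be read beside that of all genes, which was -0.02 with TMM. Permuting 3 libraries against 3 gives no p below 0.1 for any gene, and the adjusted p values therefore rest on the spread that edgeR models across genes. Log2 fold changes are Hb over Ha and are given ± SE, and values of single libraries are in the order of their numbers. The SE was derived from the test, as the log2 fold change without its sign divided by the square root of the edgeR F statistic. It is therefore approximate, above all for genes near 0 in one group.

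**Figure D1:**
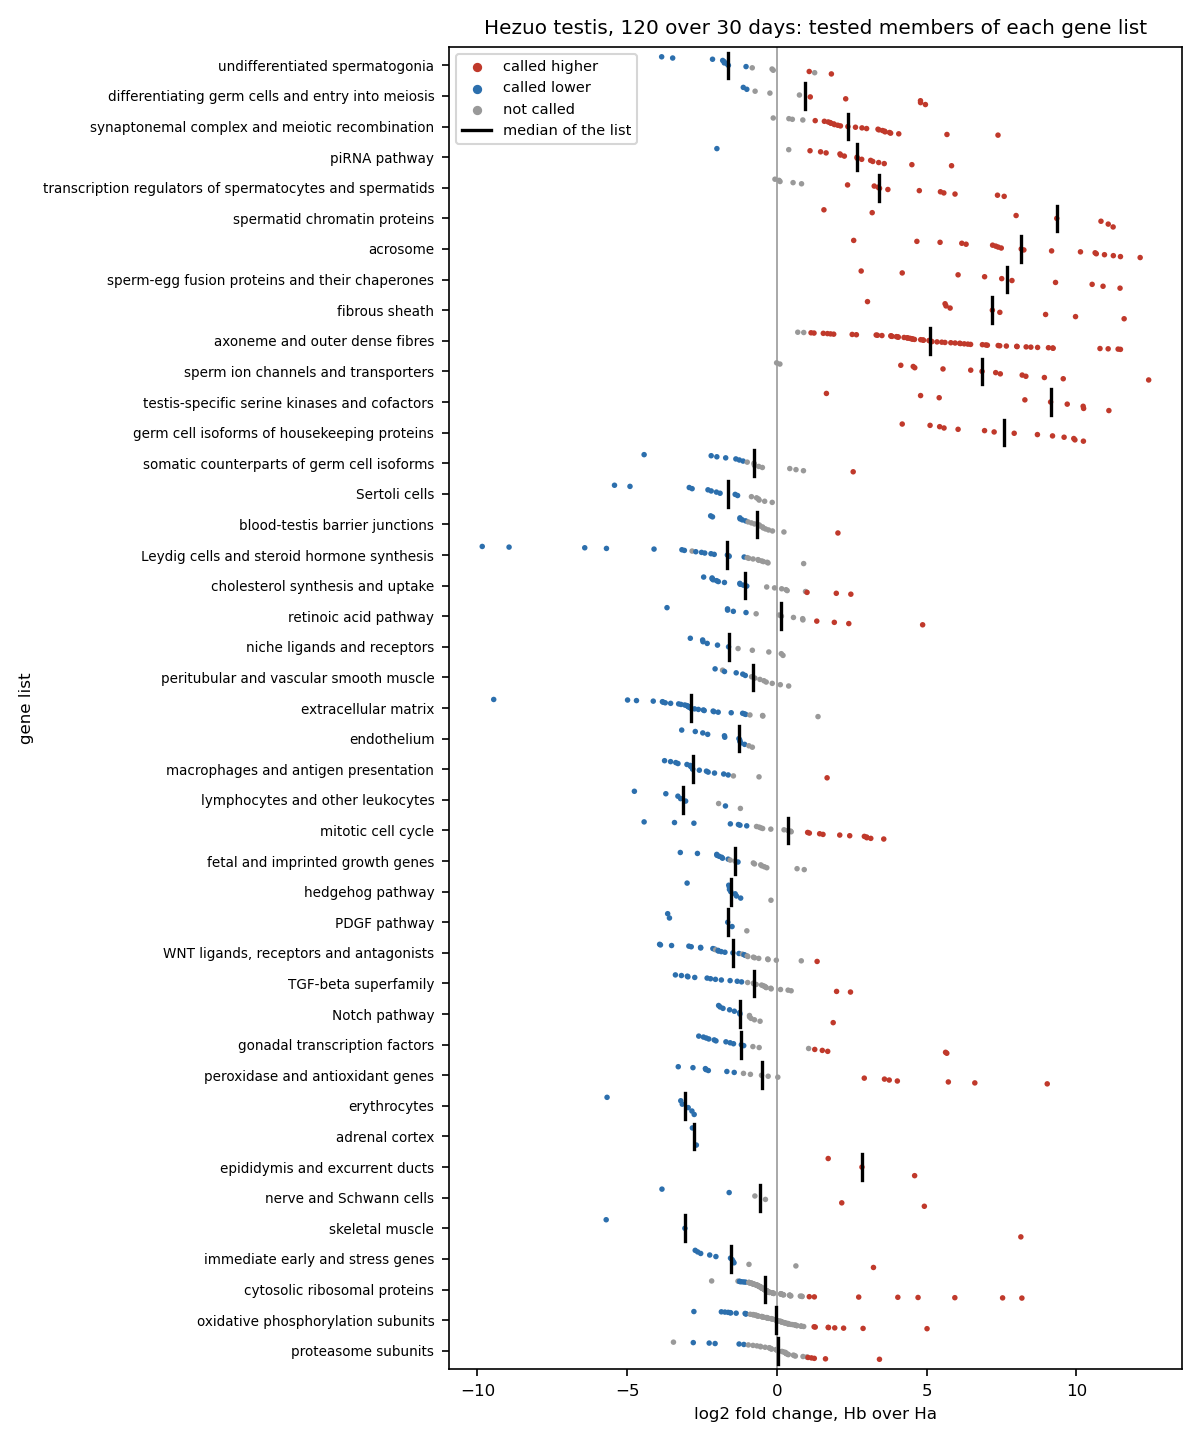
Each point is the log2 fold change, Hb over Ha, of a tested gene of the list named at the left, red where called higher, blue where called lower and grey where not called, and the black ticks are list medians. Medians ran from -3.13 in lymphocytes and other leukocytes to 9.34 in spermatid chromatin proteins.

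Ranks in this paragraph are among called genes with a symbol other than LOC or MSTRG whose groups did not overlap. The higher genes with the smallest adjusted p were ACTL7A, SPEM3, TSSK2, ODF1 and SPERT. SPERT, a spermatid protein, had 0.492, 0.396 and 0.463 CPM at 30 days and 1040.3, 716 and 962 CPM at 120 days. Every 120-day library was far above every 30-day library (log2 fold change 10.96 ± 0.26, edgeR adjusted p = 1.7e-06). ODF1, the main protein of the outer dense fibres that stiffen the sperm tail, behaved alike, from 0.454, 0.475 and 0.501 CPM to 1007, 868 and 1218 CPM (11.06 ± 0.24). Among the higher genes with the most counts at 120 days was PKDREJ, a polycystin relative of the sperm surface, with 27.3, 24.4 and 11.4 CPM at 30 days and 6869, 3487 and 5457 CPM at 120 days. HSP90AA1, a chaperone, was already at 1133, 1007 and 1044 CPM at 30 days and stood at 3351, 3385 and 3028 CPM at 120 days, without overlap (1.62 ± 0.14). The lower genes with the smallest adjusted p were CBR1, GALNT11, TP53I11, HSD17B2 and CCND2. HSD17B2, which inactivates estradiol and testosterone, had 1943, 1171 and 1323 counts at 30 days and 3, 2 and 1 at 120 days, 521-fold lower with a 95% counting interval of 239 to 1419 (edgeR adjusted p = 3.0e-06). CCND2, a D-type cyclin of dividing gonadal cells, went from 91.2, 86.0 and 101 CPM to 8.71, 9.37 and 7.84 CPM (-3.42 ± 0.14). For both, each 120-day library was below each 30-day library. GALNT11, a glycosyltransferase, was at 67.7, 73.1 and 69.4 CPM and then at 4.27, 4.27 and 3.46 CPM (-4.13 ± 0.16), and TP53I11, named for its induction by p53, at 149, 117 and 120.2 CPM and then at 8.48, 9.14 and 9.15 CPM (-3.85 ± 0.15). Among the lower genes with the most counts at 30 days, C4A of the complement system went from 4165, 3419 and 3795 CPM to 445, 575 and 367 CPM (-3.04 ± 0.21).

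Genes of the spermatogonial stem cell were mostly lower at 120 days relative to the rest of the testis. Of 16 listed genes of undifferentiated spermatogonia, 15 passed the filter on low counts, 9 fell and 2 rose, with a median log2 fold change of -1.62. GFRA1, the receptor subunit through which the niche factor GDNF acts, had 30.0, 43.3 and 46.6 CPM at 30 days and 3.98, 12.4 and 10.6 CPM at 120 days. No library of Hb reached the lowest of Ha (-2.15 ± 0.41, edgeR adjusted p = 0.00252). THY1, a surface protein used to enrich these cells, showed the largest fall of the list among well counted genes, from 26.2, 21.5 and 23.1 CPM to 2.77, 1.14 and 2.48 CPM (-3.48 ± 0.34). NANOS2, an RNA-binding protein that keeps stem cells undifferentiated, had 13, 20 and 35 counts at 30 days and 0, 1 and 2 counts at 120 days. That is 16.0-fold lower, with a 95% counting interval of 5.23 to 79.3, or 34.5-fold without Hb3, and it was not called with limma on log2(FPKM + 1). ETV5, a transcription factor of stem cell renewal, went the other way, from 64.7, 73.5 and 75.9 CPM to 290.1, 199 and 266 CPM (1.82 ± 0.17, edgeR adjusted p = 8.2e-05). The other gene called higher was ID4, chosen for mention after its values were seen, with 6.09, 5.62 and 2.78 CPM and then 9.23, 12.3 and 9.08 CPM (1.08 ± 0.34). Its call was lost without Ha3 (0.79) and without Hb2 (0.89), which leaves 1 rise in the list, and the count was also 1 with library size alone and with limma on FPKM. ZBTB16 and DAZL were not called, at 110.2, 104 and 102.2 and 101.9, 91.5 and 55.7 CPM at 30 days against 42.2, 75.3 and 61.4 and 141, 152 and 127 CPM at 120 days. ZBTB16 was called lower without Hb2, at -1.06. Counting intervals and floors cover counting error only.

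Entry into meiosis was marked by rises of REC8 and STRA8. Of 12 listed genes, 10 were tested, 5 rose and 2 fell (median 0.93), where 28.2% of all tested genes rose and 23.2% fell. REC8, the cohesin that holds sister chromatids together in meiosis, had 3.90, 6.06 and 1.62 CPM at 30 days and 148, 98.4 and 114 CPM at 120 days, without overlap (4.96 ± 0.46, edgeR adjusted p = 8.4e-05). STRA8, the retinoic acid target that opens the meiotic program, was scarce at both ages, with 0.227, 0.752 and 0.270 CPM and then 1.79, 2.36 and 2.03 CPM (2.30 ± 0.54, or 3.02 without Ha2). KIT, the receptor of differentiating spermatogonia, and SOHLH1, a transcription factor of the same stage, were the falls, at -1.01 ± 0.27 and -1.12 ± 0.20. Neither call was stable. Without Hb1 none of the list fell, with KIT at -0.86 and SOHLH1 at -0.95. The call of KIT was also lost without Ha1 (-0.88), Ha2 (-0.93) and Hb3 (-0.89). With DESeq2 1 gene of the list fell, and with library size alone and both limma settings 3 did. With limma on log2(FPKM + 1) 3 genes rose, and STRA8 was not called.

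Most tested genes that pair and recombine chromosomes rose, 18 of them with limma on log2(FPKM + 1). Of 35 listed genes of the synaptonemal complex and meiotic recombination, 27 were matched and tested, and 23 rose, none fell, and the median log2 fold change was 2.37 against -0.02 over all genes. SYCP1, the central filament of the complex, had 2.12, 4.0 and 1.77 CPM at 30 days and 27.9, 28.4 and 27.4 CPM at 120 days. The 120-day values lay close together and far above the others (3.40 ± 0.32, edgeR adjusted p = 8.8e-05). DMC1, the recombinase that finds the homologous chromosome, went from 2.57, 2.61 and 0.270 CPM to 34.5, 30.6 and 26.7 CPM (4.07 ± 0.66). SPO11, which cuts DNA to start recombination, went from 0.946, 1.07 and 1.16 CPM to 15.5, 7.64 and 9.93 CPM (3.38 ± 0.35). SYCP3 of the lateral elements had 1.51, 1.11 and 0.540 CPM and then 2.54, 4.50 and 3.85 CPM (1.78 ± 0.46) and was not called with limma on log2(FPKM + 1). The largest rise was that of SHCBP1L, a spindle protein of male meiosis, from 1.51, 3.13 and 1.12 CPM to 404, 247 and 310.4 CPM (7.38 ± 0.44). Proteins of the piRNA pathway, which silences transposons in germ cells, followed. Of 17 tested genes 15 rose and 1 fell (median 2.68). PIWIL1, the Argonaute protein of spermatocytes and round spermatids, had 9.04, 9.90 and 4.74 CPM at 30 days and 504, 437 and 408 CPM at 120 days (5.83 ± 0.31, edgeR adjusted p = 7.4e-06). PIWIL2, which is active from spermatogonia on, was already at 107, 104 and 98.5 CPM at 30 days and stood at 212, 243 and 211 CPM at 120 days (1.10 ± 0.12), a call that was lost with library size alone and both limma settings. PIWIL4, the Argonaute of early germ cells, was the fall, from 10.7, 12.7 and 23.5 CPM to 2.13, 4.37 and 5.16 CPM (-2.01 ± 0.43). All 3 of these proteins bind piRNAs, and the groups did not overlap for any of them. TDRD1, a scaffold of the piRNA granule, was not called, at 55.7, 38.7 and 54.6 CPM and 56.3, 73.3 and 66.3 CPM.

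Transcription regulators that drive the later program rose with it, 11 of 16 tested and none fell (median 3.40). MYBL1, the master regulator of pachytene spermatocytes, had 9.72, 9.35 and 8.02 CPM at 30 days and 99.7, 70.3 and 87.7 CPM at 120 days (3.25 ± 0.18). RFX2, which switches on ciliary and spermatid genes, went from 9.61, 9.23 and 8.64 CPM to 677, 364 and 655 CPM (5.95 ± 0.29, edgeR adjusted p = 5.2e-06). CREM, the activator of post-meiotic genes, went from 14.0, 15.3 and 14.5 CPM to 178, 131 and 146 CPM (3.38 ± 0.16). SOX30, another regulator of round spermatids, went from 1.44, 1.82 and 1.70 CPM to 79.7, 65.2 and 74.0 CPM (5.46 ± 0.18). In each of these genes the highest 30-day library lay below the lowest 120-day library. The largest rise was in KCTD19, a partner of ZFP541 in pachytene spermatocytes, from 4.198, 4.71 and 0.964 CPM to 769, 416 and 719 CPM (7.59 ± 0.63).

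Genes of proteins that pack the sperm nucleus rose steeply. Of 13 listed spermatid chromatin genes 7 were matched, and all 7 were tested and rose, with a median log2 fold change of 9.34. PRM1, the protamine that replaces histones, had 0.832, 1.39 and 1.12 CPM at 30 days and 2030.0, 2079 and 3057 CPM at 120 days. PRM2, its partner, went from 0.0378, 0.198 and 0.116 CPM to 84.2, 54.3 and 99.1 CPM, and TNP2, a transition protein that acts between histones and protamines, from 0.340, 0.396 and 0.463 CPM to 784, 414 and 1002 CPM. Their log2 fold changes were 11.06 ± 0.35, 9.34 ± 0.45 and 10.82 ± 0.47, with edgeR adjusted p = 1.7e-06, 4.9e-06 and 3.5e-06. These genes are neighbours on chromosome 3 of the genome build Sscrofa11.1, where PRM1 lies at 31861087 to 31861529, PRM2 at 31864350 to 31864959 and TNP2 at 31868517 to 31871530. Per length, PRM1 was the more abundant of the protamines at 120 days, at 4301 ± 1038 FPKM against 100.02 ± 24.6 FPKM for PRM2 (SD, n = 3). TNP1, a transition protein on chromosome 15, had 1, 0 and 0 counts in the 30-day libraries and 878, 566 and 874 in the 120-day ones. The ratio was 3293-fold, with a 95% counting interval of 590.4 to 130122. It was 2193-fold without Ha3, and without Ha1, which held the only young count, at least 379-fold.

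Genes of the acrosome, the vesicle of enzymes that lets sperm enter the egg coat, rose as well. Of 25 listed genes 19 passed the filter and all of these rose (median 8.16, or 7.31 with genes at 0 in Ha set to their lower bound). Listed genes near 0 at 30 days could pass the filter only by being high at 120 days, which partly fixes this count. ACR, the protease acrosin, had 0.0756, 0 and 0.154 CPM at 30 days and 299, 186 and 222 CPM at 120 days (11.47 ± 0.48, or 5992-fold without Ha3, which leaves 2 counts in Ha, edgeR adjusted p = 3.0e-06). ACRBP, which binds its precursor, went from 4.58, 4.32 and 4.55 CPM to 1596, 1015 and 1477 CPM (8.25 ± 0.26). SPACA1, a membrane protein needed to shape the acrosome, went from 2.80, 2.18 and 2.62 CPM to 214, 188 and 148 CPM (6.17 ± 0.21). ACRV1, an acrosomal antigen, had 1, 2 and 0 counts at 30 days and 3791, 4791 and 2441 at 120 days, a ratio of 5219.8 (95% counting interval 1786 to 25315) that was 10565 without Ha2 and 3476 without Ha3. For each of these genes the ages were separated without overlap. Genes of sperm-egg fusion rose in all 10 tested cases of 15 listed (median 7.68, or 7.30 with bounds). IZUMO1, the sperm ligand of the egg receptor, had 0.113, 0.356 and 0.0771 CPM at 30 days and 40.0, 33.9 and 27.9 CPM at 120 days (7.51 ± 0.45, or 358-fold without Ha2, which leaves at most 3 counts per library of Ha). DCST1, a membrane protein needed for fusion, was at 0 counts in all 30-day libraries and at 10.6, 22.3 and 14.9 CPM at 120 days, at least 137-fold higher, against 3 counts per library.

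Every tested gene of the fibrous sheath, the sleeve around the sperm tail that holds its glycolytic enzymes, rose (9 of 9, of 10 listed, median 7.19). AKAP4, its main structural protein, had 0, 0.396 and 1.20 CPM at 30 days and 1575, 1513 and 1875 CPM at 120 days (11.59 ± 0.87, or 11.01 without Ha1 and 13.00 without Ha3). ROPN1, a sheath protein of the cAMP pathway, went from 0.492, 0.515 and 0.617 CPM to 688, 390.4 and 568 CPM (9.97 ± 0.32). AKAP3, an anchor that assembles earlier in the tail, had 18.7, 14.9 and 17.2 CPM at 30 days and 1084, 794 and 919 CPM at 120 days (5.78 ± 0.20). For the axoneme and outer dense fibres, 61 of 63 tested genes rose, none fell and 68 had been listed (median 5.10). ODF2, which also builds centrioles in other cells, had 50.9, 46.9 and 44.0 CPM at 30 days and 1055, 853 and 1147 CPM at 120 days (4.43 ± 0.17). DNAH1, a motor of the inner dynein arm, went from 5.37, 5.35 and 14.2 CPM to 661, 467 and 610.3 CPM (6.13 ± 0.47, or 6.75 without Ha3). TEKT2, a filament protein inside the microtubule doublets, went from 1.29, 1.31 and 0.849 CPM to 819, 484 and 764 CPM (9.22 ± 0.33). CFAP65 of the sperm flagellum was at 0 counts in Ha and at 27.5, 5.37 and 15.5 CPM in Hb, at least 139-fold higher, or 89.9-fold without Hb1. No overlap was seen for these genes.

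Channels that steer the sperm tail rose in 13 of 15 tested cases, none fell and 18 were listed (median 6.85, or 6.47 with bounds and 6.26 without Ha3). CATSPER1, a pore subunit of the sperm calcium channel, had 0.227, 0.0792 and 0.193 CPM at 30 days and 55.1, 49.97 and 46.5 CPM at 120 days (8.19 ± 0.31). CATSPER2, another pore subunit, had 3.14, 3.33 and 3.01 CPM and then 162, 107 and 174 CPM (5.55 ± 0.23). SLC9C1, the sperm sodium-proton exchanger, was at 0 counts at 30 days and at 48.9, 18.8 and 25.2 CPM at 120 days, at least 267-fold higher. Testis-specific serine kinases, which act in late spermatids, all rose (9 of 9, median 9.14). TSSK6, needed for packing of sperm DNA, had 0.378, 0.317 and 0.424 CPM at 30 days and 527, 302 and 532 CPM at 120 days (10.23 ± 0.35, edgeR adjusted p = 1.7e-06). TSSK3 went from 0.0756, 0.158 and 0.193 CPM to 199, 128 and 209 CPM (10.24 ± 0.36). Both kinases were thus near 0 in each young boar and above 100 CPM in each older one.

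Many housekeeping proteins have a second gene that is used in germ cells, and this gene was higher at 120 days in most listed pairs. Whether any cell switched from one gene to the other was not tested. Of 17 listed germ cell isoforms 14 were tested and all rose (median 7.59, or 7.09 with bounds). Of 17 somatic counterparts, all tested, 7 fell and 1 rose (median -0.76), and 11 fell with library size alone or with limma on FPKM. Paired by protein, the germ cell gene rose in 12 of 14 pairs, the somatic gene fell in 6 of the same pairs, and YBX1 was the somatic gene that rose. PGK2, the phosphoglycerate kinase of sperm glycolysis, had 1.10, 0.832 and 0.964 CPM at 30 days and 949, 762 and 1098 CPM at 120 days (9.91 ± 0.25, edgeR adjusted p = 1.7e-06). Its somatic counterpart PGK1, on chromosome X, went from 398, 353 and 385 CPM to 114, 122 and 110.2 CPM (-1.71 ± 0.12). Of the summed FPKM of this pair, PGK2 held 0.249% to 0.294% at 30 days and 86.9% to 91.4% at 120 days. LDHC, the lactate dehydrogenase of germ cells, held 3.31% to 4.71% of its pair with LDHA at 30 days and 93.6% to 97.1% at 120 days. GAPDHS, the glyceraldehyde phosphate dehydrogenase bound to the fibrous sheath, went from at most 0.0449% of its pair with GAPDH to between 44.1% and 50.6%. Not every pair turned over in this way. ENO4 rose but still held at most 1.63% of its pair with ENO1, and CAPZA3, an actin-capping protein of sperm, at most 2.94%. PDHA2 and RBMXL2 had too few counts to be tested, and PDHA2 stood at 0.0378, 0.0792 and 0.0386 CPM and 0.173, 0 and 0.261 CPM.

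**Figure D2:**
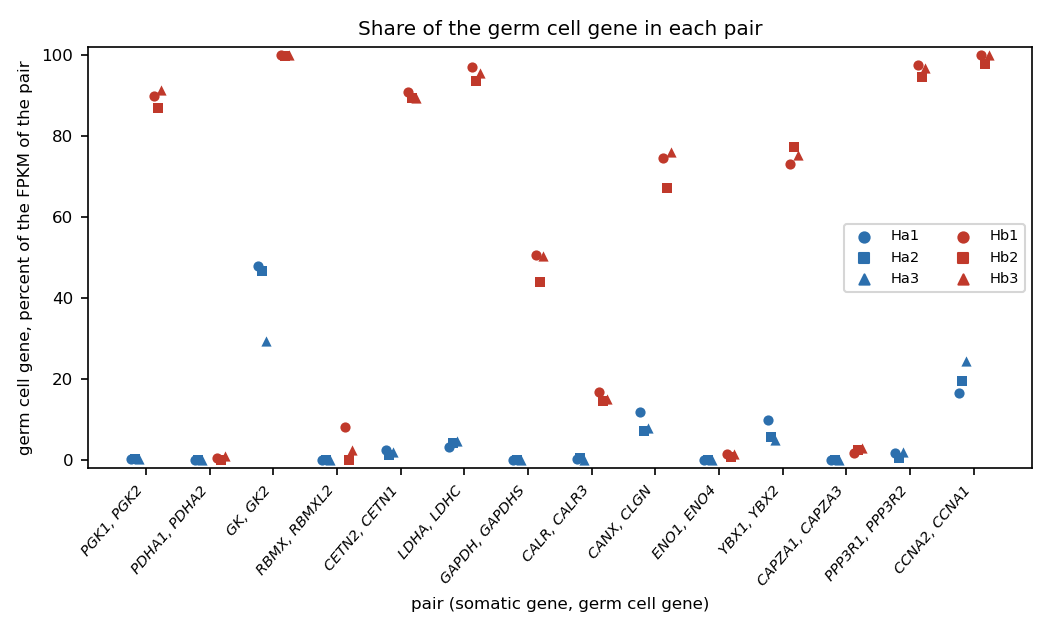
The percent of the summed FPKM of a pair that the germ cell gene holds, for 14 pairs and each of the 6 libraries (blue 30 days, red 120 days). PGK2 rose from at most 0.294% to at least 86.9%, while ENO4 stayed at or under 1.63%.

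Sertoli cell genes were lower or not called at 120 days. Of 17 listed genes 16 were tested, 10 fell and none rose (median -1.65). AMH, the hormone of immature Sertoli cells, had 129.6, 132 and 261 CPM at 30 days and 2.88, 7.96 and 6.47 CPM at 120 days. The lowest young boar was far above the highest older one (-4.91 ± 0.47, edgeR adjusted p = 9.2e-05). KRT18, a keratin of immature Sertoli cells, fell from 79, 244 and 62 counts to 1, 2 and 3 counts, 45.2-fold lower with a 95% counting interval of 20.6 to 124, or 24.5-fold without Ha2. Other genes of the cell were not called. SOX9, its transcription factor, had 105, 118 and 124 CPM and 54.2, 90.7 and 81.1 CPM (-0.62 ± 0.20), and WT1 had 49.5, 55.6 and 63.4 CPM and 28.0, 41.5 and 42.1 CPM (-0.59 ± 0.19). FSHR, the receptor of follicle-stimulating hormone, had 34.5, 41.9 and 53.2 CPM and 22.5, 50.5 and 43.3 CPM with overlap (-0.16 ± 0.31).

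Junction genes of the blood-testis barrier were mixed, where 28.2% of all tested genes rose and 23.2% fell. Of 19 listed 18 were tested, 6 fell and 1 rose (median -0.67), and 10 and 11 fell with limma on log2 FPKM plus 1 and plus 0.1. OCLN, a tight junction protein, had 18.3, 18.9 and 18.98 CPM at 30 days and 7.21, 7.59 and 9.08 CPM at 120 days (-1.24 ± 0.17). CLDN5, a claudin of both vessels and tubules, went from 18.04, 16.3 and 19.7 CPM to 3.23, 4.77 and 3.59 CPM (-2.21 ± 0.22). ESPN, which bundles actin where Sertoli cells hold spermatids, was the rise, from 96.9, 153 and 29.2 CPM to 312, 344 and 488 CPM (2.04 ± 0.54, edgeR adjusted p = 0.0112). TJP1, the scaffold of tight junctions, was not called, at 385, 387 and 372 CPM and 436, 471 and 439 CPM, and neither was the gap junction gene GJA1, at 244, 211 and 216 CPM and 176, 169 and 108 CPM.

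Most tested Leydig cell and steroid hormone genes were called lower at 120 days, and more of them were so without Hb1. With all libraries, 15 of 27 tested genes fell, none rose and 29 were listed (median -1.65). Without Hb1, 18 fell, 1 rose, and the median was -2.95, the rise being in STS, a steroid sulfatase chosen after its values were seen (1.08 without Hb1 and 0.89 with it). STAR, the carrier that brings cholesterol into the mitochondrion, had 2475, 2835 and 1949.7 CPM at 30 days and 126, 6.55 and 7.71 CPM at 120 days. All older boars lay far below all young ones, with Hb1 the highest of them (-5.69 ± 1.25, edgeR adjusted p = 0.00496, and -8.40 without Hb1). CYP11A1, which makes the first steroid from cholesterol, went from 1949, 1547 and 1253 CPM to 229.8, 26.6 and 19.7 CPM (-4.10 ± 0.97, or -6.08 without Hb1). CYP17A1 had 3565, 3444 and 3515 CPM at 30 days against 1437, 20.7 and 19.1 CPM at 120 days. It was not called with Hb1 (-2.83 ± 1.53, edgeR adjusted p = 0.134). Without Hb1 it was called lower (-7.45, edgeR adjusted p = 5.9e-06), as it was with all libraries under the replicate block and both limma settings. INSL3, the peptide hormone of Leydig cells, had 1599, 1249 and 1529 CPM and then 2070.0, 95.3 and 34.5 CPM, with Hb1 above every young boar. It too was not called with Hb1 (-0.99 ± 1.26) and was called lower without it (-4.47). SRD5A1, which makes dihydrotestosterone, had 101, 94.8 and 55.2 CPM and then 124, 18.5 and 19.5 CPM, and its log2 fold change of -0.63 became -2.13 without Hb1, where it was called. SRD5A1 is named here after its values were seen. CBR1, a carbonyl reductase, did not follow Hb1, since it had 559.7, 636 and 825 CPM at 30 days and 0.692, 0.818 and 0.653 CPM at 120 days. NR5A1, the transcription factor of steroid-making cells, went from 227, 204 and 218 CPM to 67.8, 44.3 and 39.8 CPM (-2.09 ± 0.21, or -2.35 without Hb1).

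**Figure D3:**
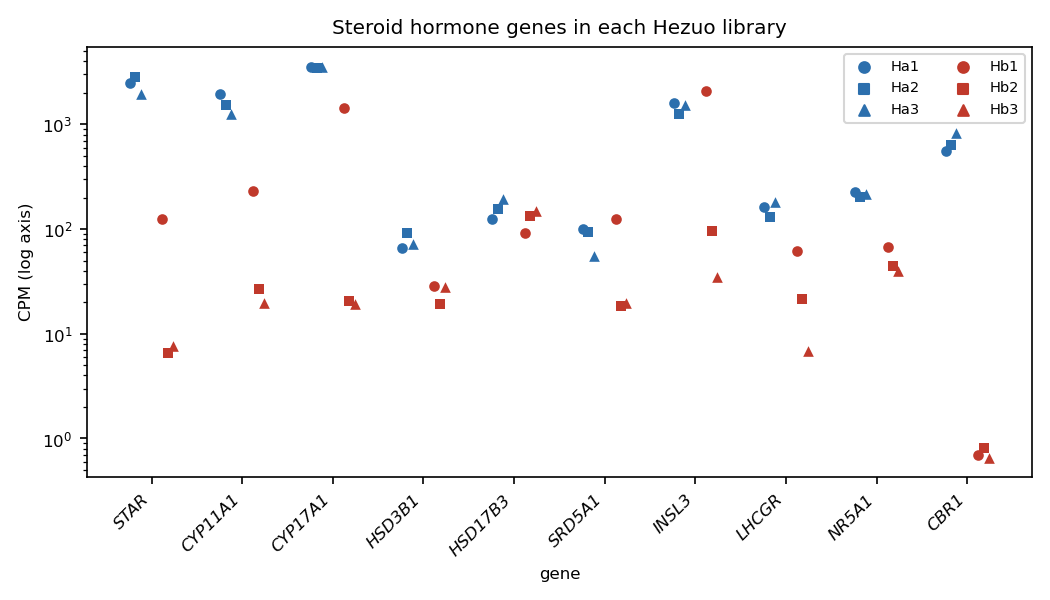
CPM on a log axis of steroid hormone genes in each library, blue for 30 days and red for 120 days, with a marker shape for each library number. Hb1 (red circles) lay at 1437 CPM for CYP17A1 and 2070.0 CPM for INSL3, against at most 20.7 and 95.3 CPM in Hb2 and Hb3.

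Cholesterol genes fell more often than they rose, 11 against 3 of 20 tested (median -1.06, 21 listed). NSDHL, a demethylase of the pathway encoded on chromosome X, was higher at 120 days, from 48.7, 46.6 and 61.3 CPM to 295, 249.8 and 322 CPM (2.47 ± 0.17, edgeR adjusted p = 1.9e-05). Genes of retinoic acid, the signal for meiosis, had 4 higher and 5 lower of 15 tested and 18 listed. Over all genes the shares were 28.2% higher and 23.2% lower. The list median of 0.15 turned to -0.16 with library size alone and to -0.21 and -0.33 with limma on log2 FPKM plus 1 and plus 0.1, and 2 genes rose with the former. ALDH1A2, the synthetic enzyme of spermatocytes, had 79.9, 79.1 and 74.5 CPM at 30 days and 370.4, 336 and 175 CPM at 120 days (1.92 ± 0.27). LRAT, which stores retinol as esters, showed the largest rise, from 2.27, 1.505 and 2.08 CPM to 59.6, 61.3 and 50.4 CPM (4.87 ± 0.22).

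Ligands and receptors of the stem cell niche fell in 6 of 11 tested cases, none rose and 14 were listed (median -1.62). KITLG, the ligand of KIT made by Sertoli cells, had 99.6, 95.3 and 73.6 CPM at 30 days and 28.6, 20.8 and 18.4 CPM at 120 days (-1.99 ± 0.21). CXCL12, a chemokine that holds stem cells in place, went from 42.5, 29.3 and 41.0 CPM to 5.59, 11.2 and 5.49 CPM (-2.33 ± 0.33). Its receptor CXCR4 was not called, at 11.8, 11.8 and 8.72 CPM and 10.04, 11.09 and 14.7 CPM with overlap. Smooth muscle genes of the tubule wall and vessels fell in 5 of 14 cases and none rose (median -0.79), and 9 fell with limma on log2(FPKM + 0.1). The shares over all genes were 23.2% lower and 28.2% higher. ACTA2, the actin of myoid cells, went from 148, 172 and 169 CPM to 61.2, 89.9 and 70.5 CPM (-1.14 ± 0.17). ACTG2, another smooth muscle actin, went from 8.25, 8.16 and 7.79 CPM to 2.77, 1.32 and 1.70 CPM (-2.07 ± 0.33). DES, the intermediate filament of muscle, was not called and overlapped, at 18.7, 14.7 and 14.9 CPM and 14.2, 23.4 and 14.5 CPM.

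Genes of the extracellular matrix were lower almost throughout. All 32 listed genes were tested, 28 fell and none rose, against 23.2% lower over all genes, and the median log2 fold change was -2.88. This contrast is not independent evidence, because the list was chosen with earlier results of these data known. COL1A1, the main collagen of connective tissue, had 193, 279 and 179.7 CPM at 30 days and 9.75, 4.77 and 6.08 CPM at 120 days. The ages were far apart in every pair of libraries (-4.99 ± 0.33, edgeR adjusted p = 1.8e-05). COL3A1, which forms fibrils with it, went from 2957, 2637 and 2555 CPM to 239, 43.5 and 33.6 CPM, with Hb1 the highest of the older boars (-4.69 ± 0.80, or -6.13 without Hb1). FN1, the adhesive protein fibronectin, went from 44.1, 57.3 and 58.4 CPM to 9.11, 8.32 and 8.49 CPM (-2.62 ± 0.17), and the proteoglycan gene DCN from 152, 136 and 177 CPM to 39.2, 39.3 and 29.5 CPM (-2.11 ± 0.17). COL5A1, a collagen that starts fibrils, was at 3.29, 6.85 and 1.81 CPM in Ha and at 0 counts in Hb, at least 23.7-fold lower (15.1-fold without Ha2), was not called with limma on log2(FPKM + 1), and was chosen for mention after its values were seen. POSTN, a matrix protein also chosen after its values were seen, became a called rise without Hb2 and with DESeq2, and stood at 7.41, 5.66 and 6.40 CPM and 32.1, 6.73 and 11.7 CPM.

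Endothelial genes fell in 11 of 13 cases and none rose (median -1.27). PECAM1, an adhesion protein between endothelial cells, had 93.2, 86.7 and 67.1 CPM at 30 days and 9.40, 9.14 and 8.69 CPM at 120 days (-3.18 ± 0.17, edgeR adjusted p = 7.1e-06). VWF, the clotting factor they store, went from 390.4, 408 and 374 CPM to 124, 227 and 135 CPM (-1.27 ± 0.24). KDR, the receptor of the vessel growth factor VEGF, went from 134, 131 and 129 CPM to 30.2, 52.1 and 34.6 CPM (-1.75 ± 0.21). Genes of macrophages and antigen presentation fell in 16 of 19 cases and rose in 1 (median -2.81). CD163, a scavenger receptor of resident macrophages, had 51.6, 48.4 and 42.2 CPM and then 5.999, 7.002 and 4.64 CPM (-3.01 ± 0.20). CD74, the chain that guides antigen loading, went from 179.5, 204 and 184 CPM to 47.8, 44.8 and 22.9 CPM (-2.30 ± 0.27). MRC1, the mannose receptor, was the exception, with 60.4, 51.0 and 45.7 CPM at 30 days and 148, 214 and 139 CPM at 120 days (1.67 ± 0.20). Of 13 listed genes of lymphocytes and other leukocytes 8 were tested, 6 fell and none rose (median -3.13). CD3E of T cells went from 2.91, 2.53 and 3.93 CPM to 0.288, 0.546 and 0.261 CPM (-3.05 ± 0.44), and MS4A1 of B cells did not exceed 3 counts in any library.

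Markers of blood and of neighbouring tissues were counted in the same way, and their part in the results was not tested. Erythrocyte genes fell in all 6 tested cases of 7 listed (median -3.06, or -3.81 without Hb2), their sum going from 116, 152 and 58.7 CPM to 5.71, 14.6 and 24.6 CPM, mostly HBB, and none was at 0. HBB, the beta chain of haemoglobin, had 86.4, 121 and 33.6 CPM at 30 days and 2.94, 11.8 and 20.8 CPM at 120 days (-2.76 ± 0.71, or -3.43 without Hb3). Of 5 adrenal cortex genes 3 were matched and 2 tested, and both fell (median -2.76, or -3.43 without Hb1). Their sum went from 30.4, 16.8 and 27.5 CPM to 6.75, 1.41 and 3.99 CPM, mostly MRAP, and the adrenal receptor gene MC2R never exceeded 6 counts. Of 12 genes of the epididymis and ducts 10 were matched and 3 were tested, all of which rose (median 2.84), while none did with limma on log2(FPKM + 1). Their sum went from 13.2, 18.3 and 15.1 CPM to 54.5, 60.2 and 47.9 CPM, mostly CUBN, and 3 genes, among them DEFB129, were at 0 in Hb. CES5A, an esterase of the epididymis, went from 0.832, 1.07 and 0.733 CPM to 8.54, 4.87 and 5.55 CPM (2.84 ± 0.36), and SPINK13 and CUBN, named after their values were seen, were the others. Of nerve and Schwann cell genes 2 were higher and 2 lower of 6 tested, against 28.2% and 23.2% over all genes. The list median was -0.56, and the sums were 88.1, 90.4 and 92.0 CPM and then 136, 228 and 146 CPM, with none at 0. The rises were TUBB3, a neuronal tubulin (4.92 ± 0.23), and S100B (2.16 ± 0.50, or 1.29 without Hb2), and the falls NCAM1 (-1.60 ± 0.27) and SOX10, with 1 in each direction under limma on log2(FPKM + 1). NCAM1 had the most CPM at 30 days and TUBB3 at 120 days. Of 7 skeletal muscle genes 3 were tested. ACTA1 rose from the floor to 10.7, 3.23 and 12.8 CPM, CKM fell from 2.99, 7.01 and 10.5 CPM to 0, 0.227 and 0.131 CPM, and MYH2, a fast myosin, went from 0.454, 0.634 and 1.43 CPM to 0, 0.0455 and 0.261 CPM (median -3.07, or -2.45 without Ha3), and was 32.9-fold lower without Hb3, which leaves at most 1 count per library of Hb. The call of MYH2 was lost without Ha3 (-2.45), Hb1 (-2.51) or Hb2 (-2.71). Their sum was 3.74, 7.80 and 12.0 CPM at 30 days and 10.7, 3.50 and 13.2 CPM at 120 days, with CKM and then ACTA1 the most abundant and 3 genes at 0 in Hb.

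Genes of the mitotic cell cycle went both ways, where 28.2% of all tested genes rose and 23.2% fell. Of 27 tested genes 11 rose and 7 fell (median 0.37, 28 listed), while the median was -0.14 and -0.15 with limma on log2 FPKM plus 1 and plus 0.1, and 7 rose with the former. PLK1, a kinase of the spindle that also acts in meiosis, had 30.4, 31.8 and 24.1 CPM at 30 days and 388, 253 and 382 CPM at 120 days (3.57 ± 0.22, edgeR adjusted p = 1.3e-05). TOP2A, which untangles chromosomes, went from 139, 153 and 108 CPM to 766, 684 and 704 CPM (2.43 ± 0.16). CCNA2, the cyclin of S phase in mitosis, was the largest fall, from 16.0, 18.1 and 15.3 CPM to 0, 2.09 and 0 CPM (-4.44 ± 1.13), a value that rests on the counts in Hb2. Without it Hb is at 0 counts and at least 89.3-fold lower, and the call was lost with DESeq2. MKI67, a mark of dividing cells, was not called and overlapped, at 152, 149 and 122 CPM and 192, 136 and 252 CPM. Fetal and imprinted growth genes fell in 9 of 19 tested cases and none rose (21 listed, median -1.40). MEST was called higher without Ha3 (1.15), as was HMGA2, too low to be tested with all libraries, without Hb2 (2.71), and both are named after their values were seen. IGF2, the fetal growth factor, had 51.0, 57.7 and 55.2 CPM at 30 days and 9.23, 25.7 and 17.97 CPM at 120 days (-1.63 ± 0.34). IGFBP2, which binds it, went from 29.8, 25.7 and 23.0 CPM to 2.54, 5.002 and 4.90 CPM (-2.66 ± 0.29).

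In the listed pathways of signals between cells, falls outnumbered rises, and a share of the genes was not called. Of all tested genes 28.2% rose and 23.2% fell. Hedgehog genes, which instruct Leydig cell formation, fell in 8 of 9 cases and none rose (median -1.54). DHH, the ligand from Sertoli cells, had 20.4, 20.4 and 22.3 CPM at 30 days and 9.34, 9.55 and 5.03 CPM at 120 days (-1.39 ± 0.26), and its effector GLI1 went from 12.0, 10.6 and 14.8 CPM to 3.98, 4.14 and 4.12 CPM (-1.61 ± 0.22). Genes of the PDGF pathway fell in 4 of 5 cases and none rose (median -1.64). PDGFRA, the receptor on Leydig progenitors, had 199, 232 and 223 CPM and then 96.0, 79.0 and 56.2 CPM (-1.5 ± 0.20). WNT genes fell in 17 of 29 cases and rose in 1, the receptor FZD3 (median -1.47, 32 listed), which was not called with limma on log2(FPKM + 1). SFRP1, a secreted antagonist, went from 71.8, 86.6 and 72.5 CPM to 20.4, 25.5 and 17.7 CPM (-1.86 ± 0.18), whereas FZD3 had 59.2, 63.2 and 59.2 CPM and then 158, 123 and 179 CPM (1.34 ± 0.16). In the TGF-beta superfamily 12 of 28 genes fell and 2 rose (median -0.78). TGFB3 went from 31.9, 41.0 and 48.1 CPM to 4.56, 4.37 and 2.55 CPM (-3.39 ± 0.28) and TGFB2, a ligand of the same receptors, from 9.87, 7.41 and 7.48 CPM to 24.7, 42.7 and 31.1 CPM (1.99 ± 0.25). The other rise was BMP8A, named after its values were seen. Its call was lost without Ha2, Ha3 and Hb3, each left out alone, at log2 fold changes of 2.25, 2.36 and 1.82. No gene of the superfamily rose with limma on log2(FPKM + 1), and 1 did with 0.1 added.

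In the Notch pathway 7 of 13 tested genes fell and 1 rose (median -1.24), while 11 fell with limma on log2(FPKM + 0.1). HEYL, a target gene, had 59.6, 64.0 and 74.4 CPM at 30 days and 17.9, 17.4 and 17.8 CPM at 120 days (-1.90 ± 0.14). JAG1, a ligand, went from 183, 198 and 198 CPM to 87.5, 76.7 and 52.0 CPM (-1.42 ± 0.20), but the ligand JAG2 went up from 20.6, 23.9 and 17.9 CPM to 87.0, 56.0 and 86.4 CPM (1.88 ± 0.21). Of 20 gonadal transcription factors 19 were tested, 11 fell and 5 rose (median -1.19), where 23.2% of all tested genes fell and 28.2% rose. TCF21, a factor of stromal cells, went from 11.04, 11.01 and 12.7 CPM to 1.5, 3.27 and 2.35 CPM (-2.28 ± 0.32). EYA2 rose from 10.6, 7.09 and 7.87 CPM to 476, 314 and 517 CPM (5.67 ± 0.28). EYA3, TBX20 and SIX2 rose too, and the count of rises was unstable, since 3 of the list rose without Ha2, 2 with limma on log2(FPKM + 0.1) and 1 with 1 added. EYA3, TBX20 and SIX2 are named after their values were seen.

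Of 20 listed antioxidant genes 19 were tested, 7 rose and 7 fell (median -0.52). Over all tested genes 28.2% rose and 23.2% fell. GPX4, the selenoprotein that hardens the sperm midpiece, had 111, 105 and 99.8 CPM at 30 days and 1551, 1107 and 1591 CPM at 120 days (3.75 ± 0.19, edgeR adjusted p = 5.8e-06). GPX1, the common peroxidase, went from 52.9, 49.7 and 51.8 CPM to 13.0, 21.1 and 14.2 CPM (-1.67 ± 0.21). CAT, which breaks down hydrogen peroxide, went from 520.2, 715 and 621 CPM to 207, 76.4 and 95.3 CPM (-2.29 ± 0.38). GSTA1, a glutathione transferase of steroid-making cells, went from 428, 334 and 474 CPM to 57.4, 23.4 and 45.2 CPM (-3.30 ± 0.34). Immediate early and stress genes fell in 9 of 12 cases and rose in 1 (median -1.52). JUN, a transcription factor induced by stimuli, had 63.1, 54.2 and 45.8 CPM and then 13.2, 12.6 and 8.49 CPM (-2.25 ± 0.22), while the chaperone gene DNAJB1 had 85.4, 86.2 and 84.6 CPM and then 942, 596 and 857 CPM (3.22 ± 0.20). Of 9 genes that the study discusses for the ages of HZ 8 were tested, 4 rose and 4 fell (median 1.01). They were chosen by the study on these samples and are not independent evidence. SHCBP1L, with values given above, was among the rises. HSD17B4, a peroxisomal enzyme, went from 895, 668 and 763 CPM to 354, 158 and 227 CPM (-1.65 ± 0.29), and CYP21A2, the steroid 21-hydroxylase, from 35.1, 27.9 and 33.4 CPM to 0.923, 0.136 and 0.0653 CPM (-6.42 ± 0.65, or 300.1-fold lower without Hb1, which leaves at most 3 counts per library of Hb).

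Large complexes present in every cell had medians nearer 0 with TMM but lower ones with library size alone and limma. Over all genes 28.2% were called higher and 23.2% lower with TMM. Of 87 tested ribosomal protein genes 8 rose and 5 fell (median -0.41), but 12 fell without Hb2, 17 with library size alone and 37 with either limma setting, and 4 rose with limma on log2(FPKM + 1). The medians were -0.71, -0.90 and -0.90 with library size alone and limma on log2 FPKM plus 1 and plus 0.1. RPL10L, the autosomal copy that stands in for an X-linked gene in meiosis, had 4.27, 3.45 and 1.74 CPM at 30 days and 219.6, 164 and 199 CPM at 120 days (5.94 ± 0.35). For oxidative phosphorylation 8 of 64 subunits rose and 10 fell (median -0.03), while 19 fell with either limma setting and 14 with library size alone. In the order above, the medians were -0.34, -0.50 and -0.52. COX7A1, the heart and muscle form of a cytochrome oxidase subunit, went from 7.38, 7.37 and 7.21 CPM to 1.21, 1.36 and 0.588 CPM (-2.77 ± 0.36). COX7A2, the form of other tissues, went from 86.0, 79.5 and 79.9 CPM to 635, 489 and 679 CPM (2.88 ± 0.16). In the proteasome 5 of 38 subunits rose and 5 fell (median 0.04). With library size alone and limma on log2 FPKM plus 1 and plus 0.1, 2 rose and 8, 11 and 11 fell, and the medians were -0.27, -0.45 and -0.46. PSMA8, the subunit of the germ cell proteasome, went from 2.16, 3.09 and 1.70 CPM to 29.4, 24.1 and 21.0 CPM (3.42 ± 0.28). PSMB8 of the immune form went from 23.9, 23.1 and 23.6 CPM to 5.94, 5.002 and 3.72 CPM (-2.26 ± 0.21). These subunits were picked with their values already seen.

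By position, the X chromosome, which spermatocytes silence, held fewer rises than the autosomes. Of 601 tested genes on it, 89 (14.8%) rose and 226 (37.6%) fell, with a median log2 fold change of -0.78. On chromosomes 1 to 18 together the shares were 26.1% and 23.5% of 14883 genes (median -0.06). No single autosome had under 22.4% higher or over 27.8% lower. On Y 18 of 39 genes rose (46.2%), and 66.8% rose of 1012 genes on other sequences or without a position (median 3.84). Among the latter are genes that the authors assembled from these same libraries, so their presence is not independent of their levels. Genes of X held 2.89, 2.89 and 2.78% of the counts at 30 days and 1.53, 2.12 and 1.72% at 120 days. Besides AKAP4, genes on X that rose included ARHGAP36, a regulator of GTPases, with 96.6, 85.2 and 75.6 CPM and then 279, 372 and 312 CPM (1.90 ± 0.16). MAOA, the monoamine oxidase on X, had 64.9, 71.0 and 46.2 CPM and then 173, 170.2 and 184 CPM (1.53 ± 0.17), and both of these were picked once their values had been seen. The mitochondrial genome held 1.51, 1.59 and 1.58% of the counts at 30 days and 0.424, 0.678 and 0.568% at 120 days, and 5 of its 13 tested genes fell and none rose. COX1, an oxidase subunit it encodes, went from 10522, 10785 and 11025 CPM to 3806, 5123 and 4858 CPM (-1.23 ± 0.18).

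Among lncRNAs, 56.2% of 2909 tested transcripts were called, 38.6% higher and 17.6% lower at 120 days. Transcripts known to RefSeq were balanced, with 398 higher and 395 lower of 1938 and a median of -0.18. Transcripts that the authors assembled were mostly higher, 726 against 116 of 971, with a median of 5.57. The assembly was built from these same libraries, so which transcripts it holds is not independent of their levels. When lncRNAs were scaled like the coding genes of the same libraries, the known transcripts became 572 higher and 183 lower (median 0.50). In that scaling 1323 of the 2909 transcripts were higher and 260 lower, while limma on log2(FPKM + 1) called 769 higher and 72 lower of 8076 tested.

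Single lncRNAs also went from near 0 to high levels, given in CPM of the lncRNA table. MSTRG.23466.2 (chromosome 18, 33068379 to 33070719) had 1, 0 and 0 counts at 30 days and 1825, 1239 and 1666 at 120 days, a ratio of 4189 with a 95% counting interval of 751 to 165488, or 2772 without Ha2 and at least 470.3 without Ha1. MSTRG.1396.1 (chromosome 1, 196448587 to 196480643) went from 245, 389.8 and 58.0 CPM to 28504, 27908 and 20220.2 CPM (6.79 ± 0.78, edgeR adjusted p = 6.2e-04). A noncoding transcript of ISYNA1, a gene of inositol synthesis, was abundant at both ages, at 17834, 15198 and 17559 CPM and 59284, 50882 and 56391 CPM (1.72 ± 0.26). Others fell. MSTRG.14558.1 (chromosome 9, 61467961 to 61490333) went from 776, 679.6 and 1098 CPM to 5.97, 11.9 and 5.38 CPM (-6.73 ± 0.45), and MSTRG.2179.1 (chromosome 2, 1381833 to 1384923) from 4362, 4167 and 3416 CPM to 281, 196 and 178 CPM (-4.19 ± 0.32). MSTRG.2345.1 (chromosome 2, 6748961 to 6758836) was among the most abundant, at 151172, 156913 and 143671 CPM and then 42265, 71067 and 37859.8 CPM (-1.58 ± 0.34), and it was not called when lncRNAs were scaled like the coding genes. The ages did not overlap for any of these transcripts, nor for 1629 of the 1635 called and 69.3% of all tested lncRNAs. Of those the study discusses, LOC102166140 rose from 0, 1 and 0 counts to 129, 145 and 97 counts (ratio 329, 95% counting interval 58.6 to 13012, or 219 without Ha1 and at least 36.0 without Ha2), LOC110259451 fell from 605, 509 and 632 CPM to 215, 109.9 and 82.5 CPM (-2.10 ± 0.40), and MSTRG.15011.2 was at 0 in Ha and at 37.3, 22.3 and 89.7 CPM in Hb, at least 9.31-fold higher, or 5.57-fold without Hb3. The calls of LOC110259451 and MSTRG.15011.2 were lost with limma on log2(FPKM + 1). At 10 genes, known noncoding transcripts of the same gene were called in opposite directions, with ARHGAP19, a GTPase-activating protein, and POMK, a kinase of dystroglycan, among them, both named after their values were seen. The share over all genes with several tested transcripts is not given, so nothing is read from this count. Directions of known transcripts also depended on the scaling, as given above.

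For most genes no difference between the breeds in the effect of age was called. The age difference of HZ minus that of Landrace was tested over all 12 libraries, and 5.14% of 17332 coding genes were called, 1.62% with a larger positive and 3.51% with a more negative difference in HZ. The number called, 890, became 437 without Ha1, 501 without Ha2, 566 without Hb3, 577 without La1, 490 without La2, 461 without La3 and 575 without Lb2. Connective tissue held a number of these calls. Of 32 tested genes of the extracellular matrix 15 were more negative in HZ and 1 more positive (COL18A1, chosen after its values were seen, 1.84 ± 0.33), also 15 and 1 without Hb1, with a median difference of -1.29 against -0.02 over all genes. COL1A1 stood at 9.80, 4.88 and 6.13 CPM in Hb and at 168, 156 and 140.2 CPM in the 120-day Landrace libraries, from 196, 283 and 181 and 295, 260.1 and 353 CPM at 30 days, so that the breeds overlapped at 30 days and lay apart at 120 days. Its log2 fold change with age was -4.99 in HZ and -0.97 in Landrace, a difference of -4.02 ± 0.35 (edgeR adjusted p = 3.7e-04). FN1 changed by -2.62 and -0.88, and the basement membrane collagen gene COL4A1, named after its values were seen, by -3.73 and -0.96. Their differences were -1.75 ± 0.28 and -2.77 ± 0.30.

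The actins of smooth muscle went opposite ways in the breeds. ACTA2 fell in HZ (-1.14) and was higher at 120 days in Landrace (1.40), a difference of -2.54 ± 0.25 (edgeR adjusted p = 0.00114), and ACTG2 changed by -2.07 and 1.3 (difference -3.37 ± 0.43). Of the 14 genes of that list 4 were more negative in HZ and none more positive, or 5 without Hb1. PECAM1 of endothelium stood at -3.18 in HZ and -1.26 in Landrace (difference -1.92 ± 0.37). Of the 13 endothelial genes 2 were more negative in HZ and 0 more positive (median difference -0.34). Germ cell lists were counted in the same way, and a difference between lists was not tested. Of 21 tested acrosome genes 2 were more positive in HZ, or 1 without Hb1, and none more negative. Of genes for entry into meiosis 5 of 10 were more negative in HZ, or 4 without Hb1, among them DAZL, an RNA-binding protein of germ cells (0.75 and 2.28, difference -1.53 ± 0.27). Of 63 tested axoneme genes 2 were more negative and 1 more positive. For steroid hormone genes the count rested on Hb1, with 2 more negative of 27, and 13 without Hb1, while none was more positive.

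Among called genes with a symbol, those with the smallest adjusted p in this test came from several functions. HPD, an enzyme of tyrosine breakdown, had 65.5, 68.7 and 36.8 CPM in Ha and 0, 0 and 0.132 CPM in Hb, against 36.4, 13.4 and 14.0 and 19.8, 13.7 and 11.04 CPM in Landrace (edgeR adjusted p = 8.3e-04). Within HZ it was 1537-fold lower at 120 days, with a 95% counting interval of 425 to 12693, or 918-fold without Hb2 and at least 364-fold without Hb3. SARDH, which breaks down sarcosine, changed by -2.69 in HZ and 2.79 in Landrace (difference -5.48 ± 0.42). HK2, a hexokinase, changed by 0.57 and 3.67 (difference -3.10 ± 0.22), and CBR1 by -9.84 and -5.84 (difference -4.0 ± 0.30). Toward a more positive difference in HZ stood EXOSC9 of the RNA exosome, which changed by 2.78 and 0.53, a difference of 2.25 ± 0.23 (edgeR adjusted p = 0.00114).

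**Figure D4:**
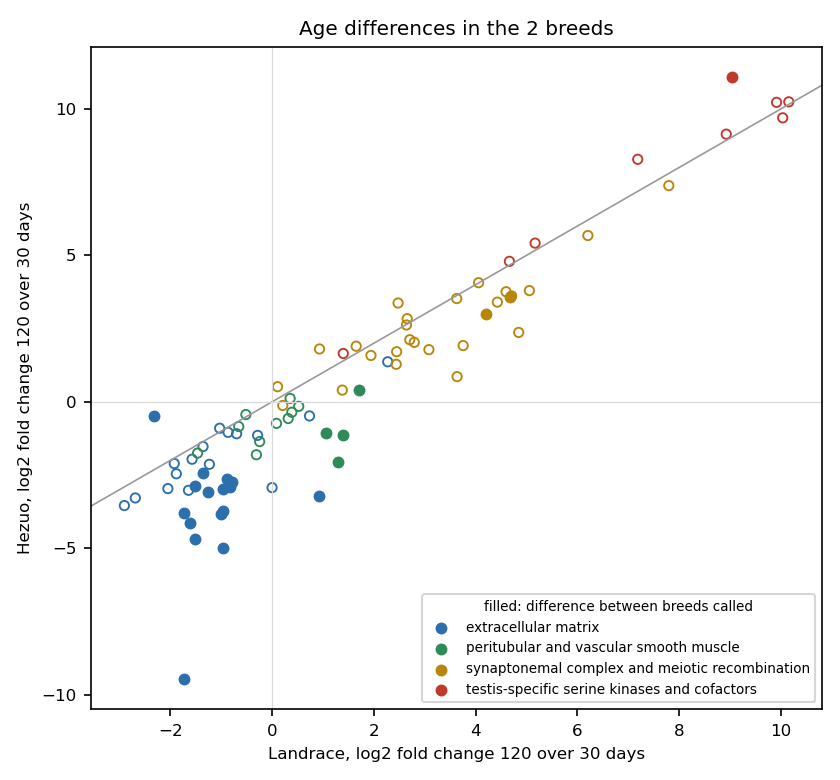
The log2 fold change with age in HZ against that in Landrace for tested genes of 4 lists, filled where the difference between breeds was called, with the line of equal change. COL1A1 lies at -4.99 in HZ and -0.97 in Landrace, below the line.

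Among 3886 lncRNAs, the same test called 1 (0.0257%). LOC106504562, a noncoding transcript, had 18271, 48182 and 25981 CPM at 30 days and 3884, 1995 and 1327 CPM at 120 days in HZ, where each older boar was below each young one, and 62.0, 107 and 163 and then 469, 1516 and 667 CPM in Landrace. It changed by -3.68 in HZ and 3.00 in Landrace (difference -6.68 ± 0.87, edgeR adjusted p = 0.0299). Without Hb3, La1, La2, La3, Lb2 or Lb3 the call was lost, with differences of -6.37, -6.50, -6.77, -7.08, -6.06 and -6.85, and no lncRNA was called in edgeR, whereas 25 were called without Ha3 and 8 without Hb2. At an unadjusted p under 0.05 stood 443 lncRNAs with all libraries, and DESeq2 called 104.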

How the data were processed

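Total RNA of 12 testes was sequenced after removal of ribosomal RNA, and 6 libraries of Hezuo pigs were compared by age, with those of Landrace used for the difference between breeds. The authors trimmed reads with fastp 0.18.0, removed ribosomal reads with Bowtie2 2.2.8, aligned with HISAT2 2.1.0 and assembled with StringTie 1.3.4. The tables the authors deposited hold estimated counts and FPKM for 21674 coding genes and 10706 lncRNAs, and exon positions of lncRNAs on the NCBI build Sscrofa11.1. Positions of other genes come from the RefSeq annotation of that build.

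Counts, rounded to whole numbers, were tested with edgeR 4.0.16 (quasi-likelihood F test, TMM, a minimum of 10 counts in its filter, Benjamini-Hochberg adjustment) in R 4.3.3. Calls needed an adjusted p below 0.05 together with a log2 fold change above 1 or below -1. The difference between breeds in the effect of age was tested as an interaction over 12 libraries. CPM use the TMM sizes of the 6 libraries, or of 12 for the interaction. For genes at 0 in a group, a bound was taken against 3 counts per library, and with 1 to 3 counts a ratio is given with a 95% counting interval.

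The members and the 44 lists of genes were chosen with earlier results of these data known. Named by the rule were the first 4 genes of each list, the called member with the largest rise or fall at 5 CPM or more without overlap, the 5 smallest adjusted p and 5 highest mean CPM in each direction (3 for lncRNAs), the strongest interactions (5, or 2 for lncRNAs, in each direction), pairs of isoforms and lncRNAs the study discusses. Ranks by adjusted p and CPM were among called features without overlap, and for coding genes among those with a symbol other than LOC or MSTRG. Interactions were ranked among called features, and coding genes there also needed a symbol. Other genes are said to be chosen after their values were seen. Of the genes on lists, 880 were matched to the table and 33 were not. Alternatives were DESeq2 1.42.0, library size alone, limma 3.58.1 on log2(FPKM + 1) and log2(FPKM + 0.1), no filter, a filter that asks for 10 counts throughout a group, a fit to 12 libraries, a replicate block, scaling of lncRNAs by coding genes, and leaving out each library.

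Limits are 3 boars per group, bulk tissue, a single library per animal, and promoter sequences that were not read. Ages differ between animals, not within them, so age cannot be told apart from other differences between the boars.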

Additional observations from a re-analysis of the deposited data

Results flagged for a closer look

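The effect of age differed between the breeds for named genes, by a test of the difference itself in edgeR over 12 libraries. Values are the log2 fold change with age in HZ minus that in Landrace. More negative in HZ, and called under all 16 alternatives, were ACTA2 (-2.54), ACTG2 (-3.37), ARHGAP36 (-1.83), C4A (-1.99), CBR1 (-4.0), COL1A1 (-4.02), COL4A1 (-2.77), COL5A1 (-7.73), DAZL (-1.53), FN1 (-1.75), HEYL (-1.41), HK2 (-3.10), HPD (-9.85), PECAM1 (-1.92), SARDH (-5.48), SOHLH1 (-1.26), TGFB3 (-1.51), THY1 (-1.78) and TP53I11 (-2.27). More positive, and called under all 16, were COL18A1 (1.84) and EXOSC9 (2.25). COL5A1 and HPD had at most 2 counts per library in Hb, as ACRV1 had in Ha, so their fitted values depend on the prior count.

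Calls of other genes depended on single libraries or on the tool. ACRV1 (2.96) was not called without Ha1, Ha3, Hb1, La1, La2 or Lb3, and ran from 2.39 to 3.79 when a library was left out. CCNA2 (-4.38) was not called with DESeq2, with a replicate block and without Ha1, Ha2, Ha3, Hb3, La1, La2, La3, Lb1, Lb2 or Lb3, and ran from -4.54 to -3.84 when a library other than Hb2 was left out. Without Hb2, Hb is at 0 counts and no value is given. COL3A1 (-3.19) was not called with DESeq2 and without Ha1, Ha2, La1, La2, La3, Lb1, Lb2 or Lb3, and ran from -4.65 to -2.82 when a library was left out. CUBN (1.42) was not called without Ha1, and ran from 1.27 to 1.65 when a library was left out. CYP21A2 (-5.60) was not called with a replicate block and without Ha1, Hb3, La1, La2 or La3, and ran from -6.14 to -3.93 when a library other than Hb1 was left out. Without Hb1, Hb holds at most 3 counts per library and no value is given. GDNF (1.90) was not called with library size alone, with a replicate block and without Ha1, Ha2, Ha3, Hb1, Hb2, Hb3, La2, La3, Lb1, Lb2 or Lb3, and ran from 1.61 to 2.13 when a library was left out. KIT (-1.3) was not called with a replicate block and without Ha1, Ha2, Hb1, Hb3, La1, La2, La3, Lb1 or Lb2, and ran from -1.60 to -1.18 when a library was left out. LOC106504562 (-6.68) was not called with a replicate block and without Hb3, La1, La2, La3, Lb2 or Lb3, and ran from -7.20 to -6.06 when a library was left out. MEST (1.02) was not called with library size alone and without Ha1, Ha2, Hb2, Hb3, La1, La2, La3, Lb1 or Lb3, and ran from 0.83 to 1.22 when a library was left out. PRM1 (1.83) was not called with a replicate block and without Ha1, Ha2, Ha3, Hb3, La1, La2, Lb1, Lb2 or Lb3, and ran from 1.5 to 2.13 when a library was left out. TSSK2 (2.05) was not called without Ha2 or La1, and ran from 1.72 to 2.39 when a library was left out. What lies behind these differences was not tested.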

How the results depend on the processing

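No named gene that was called with all libraries changed sign under an alternative, while FSHR, CXCR4, DES, MKI67, TDRD1 and TJP1, which were not called, did so for age. Of 187 named genes and lncRNAs tested for age, 179 of 182 stayed on the same side of the threshold with DESeq2, 181 with library size alone, 170 with limma on log2(FPKM + 0.1) and 157 with 1 added. Leaving out a library, 174 did so without Hb1 and between 179 and 184 without another.

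Counts of coding genes called for age ran from 8210 to 9015 when a library was left out. With limma on log2(FPKM + 1) 2831 were higher, and with 0.1 added 5892 were lower. For lncRNAs, limma on log2(FPKM + 1) called 841, of which 72 were lower, and 260 were lower with the scaling of coding genes. The cause was not tested.

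The difference between breeds was less stable. DESeq2 called 1378 coding genes, and leaving out a library gave 437 to 1242. For lncRNAs DESeq2 called 104, library size alone 2 and no filter 5, and leaving out a library gave 0 to 25.

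With a replicate block, which pairs libraries by their number, 8430 coding genes and 1369 lncRNAs were called for age, and 672 coding genes and 0 lncRNAs for the difference between breeds in edgeR, where 361 lncRNAs had an unadjusted p under 0.05 and DESeq2 without the replicate block called 104. Residuals of Ha and Hb libraries with the same number had r of 0.0613, 0.0209 and 0.0581, and those with different numbers had r from -0.0660 to -0.0027. The cause was not tested.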
